A study of Mus musculus with 43 samples.

Results

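The effect of nintedanib on lungs injured with bleomycin was followed over all genes in 33 of the 43 libraries of the series, chosen by their treatment label. Of these, 17 came from bleomycin mice given nintedanib and 16 from bleomycin mice given its vehicle. Of 21938 genes in the count table, 14836 had enough counts to be tested. A further 10 libraries came from control mice, which had no bleomycin and received a vehicle that the labels do not name. They entered the fit for the estimate of spread between libraries and give a reference level. The title of the series calls the mice a bleomycin model of idiopathic pulmonary fibrosis checked by spirometry, and the question asked was what the drug changed in the injured lung. All RNA was polyA RNA of the inferior lung lobe. The labels give no dose, route, day, age, sex or strain and do not state that each library is a separate animal, so a p-value covers only the variation among these libraries, which are called mice here. Lung identity was plain in every library. Sftpc, the surfactant protein of alveolar type 2 cells, lay at no less than 8788 CPM (counts scaled to a common library size), and Ager, a marker of alveolar type 1 cells, at no less than 1272 CPM.

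Nintedanib is a small molecule that blocks the kinases of the VEGF, PDGF and FGF receptors and several other kinases, and it is given to patients with pulmonary fibrosis. VEGF receptors sit mainly on endothelium, with the receptor for VEGF-C and VEGF-D on lymphatic vessels, while PDGF receptors sit on fibroblasts and pericytes. Bound receptors signal through the kinase ERK, which switches on short-lived early response genes and also the Sprouty and DUSP proteins that dampen the pathway. Bleomycin breaks DNA, and in rodent lung it is followed by inflammation, loss of alveolar cells and deposition of collagen.

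By edgeR's quasi-likelihood test, 1084 genes (7.31% of those tested) differed between nintedanib and vehicle at a Benjamini-Hochberg adjusted p under 0.05, here termed called. Of these, 476 (3.21%) were higher and 608 (4.10%) lower under nintedanib. With library totals as the only scaling the split was 369 higher and 813 lower. Without the control libraries, and so without their part in the estimate of spread, 254 were higher and 386 lower. Most changes were small: 81.1% of the called genes changed by less than 1.5-fold, the median size of a change was 0.288 on the log2 scale, and only 53 rose and 18 fell by at least 2-fold. No gene had groups that did not overlap. In 107 genes all 17 nintedanib mice lay below the vehicle median, and in 71 genes all 17 lay above it. Library totals were 13324549 to 18723538 counts in the nintedanib group, 13175246 to 19111457 in the vehicle group and 13138281 to 17812995 in the control group. Library numbers fall into 3 series. Among libraries of the largest series (13 nintedanib and 11 vehicle, with 9 control libraries in the fit), 501 genes were called higher and 619 lower. The other 2 number series held 2 or 3 libraries of each of these groups, too few for a value of their own, and the labels do not say what the numbers mark.

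A set of libraries stood apart through RNA of fat and of some airway genes. Adipoq, which encodes the fat cell hormone adiponectin, reached at least 1 CPM in 5 of 17 nintedanib mice (replicates 1, 5, 7, 8 and 14), in 0 of 16 vehicle mice and in 8 of 10 control mice. Summed over the fat cell list, levels ran from 18.6 to 56.6 CPM under vehicle, from 25.1 to 1300 under nintedanib and from 33.7 to 3220 in control mice. Genes of fat and of the airway lining made up most of the 12 largest rises among genes whose average log2 CPM was at least 2: Pck1, Cfd, Car3, Adipoq, Reg3g, Bpifa1, Bpifb1, Krt15, Scgb3a1, Plin1, Cyp2e1 and Sult1d1. That average is over all 43 libraries, the control libraries with Adipoq included. Only 5 of the 11 tested fat cell genes had enough counts to be tested without the control libraries. Without the 5 nintedanib and 8 control libraries, 248 genes were called higher (1.62% of 15276 tested) and 277 lower (1.81%), and 445 genes were called in both fits. Of the 53 rises of at least 2-fold, 46 were no longer called, 14 of them because they were too low to be tested there, against 5 of the 18 falls, all 18 of which were tested. Counts for the lists are therefore also given without these 13 libraries, which leaves 12 nintedanib, 16 vehicle and 2 control libraries. That fit is smaller and has another estimate of spread. Leaving out the 10 control libraries alone already gave 640 called genes. Whether a call lost there depended on the fat libraries or on the smaller fit was not tested. The 9 lists without a call in all libraries had none without these 13 libraries either. Lists and their members were chosen with earlier results of these data known, so their counts are a description and not a test. All list counts stand beside 7.31% called among all tested genes. The called share was below this for p53 (5.56%), receptor ligand (6.25%), activated fibroblast (6.25%), profibrotic macrophage (4.76%) and alveolar macrophage (6.25%) genes. It was also below for cholesterol (5.26%), glycolysis and hypoxia (5%) and ciliated cell (6.67%) genes. All RNA is bulk RNA of the inferior lung lobe, so fewer cells of a type and less RNA per cell cannot be told apart.

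**Figure D1:**
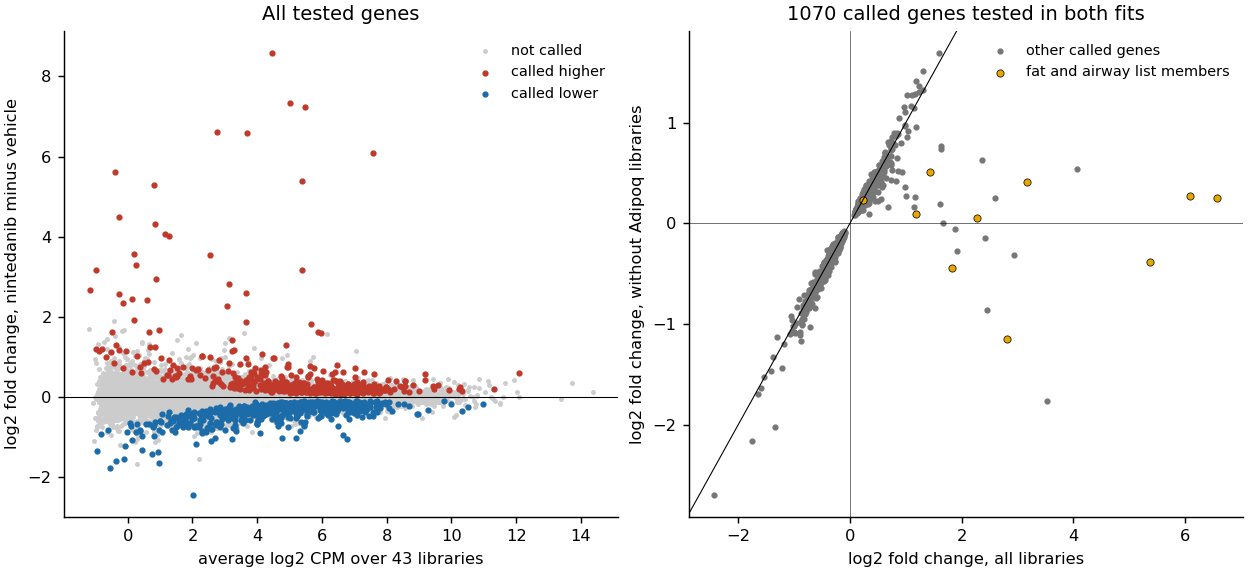
Left, log2 fold change (nintedanib minus vehicle) against average log2 CPM for 14836 tested genes, with 476 called higher in red and 608 called lower in blue. Right, the fold change of 1070 called genes with all libraries and without the libraries holding Adipoq: most points lie along the line of equality, while most members of the fat and airway lists (yellow) lie far from it, near or below 0 on the vertical axis.

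The 10 genes with the smallest p, among those whose average log2 CPM was at least 2, were all lower under nintedanib, and several are known from endothelium. Bcl6b, a transcriptional repressor of endothelial cells, had the smallest p of all (chromosome 11, 70224128 to 70229798, GRCm38). Nintedanib mice had 14.6 to 30.9 CPM (median 21.7) and vehicle mice 28.9 to 45.4 CPM (median 36) of Bcl6b. The 2 groups shared only a narrow range, since 16 of 17 nintedanib mice lay below the lowest vehicle mouse. On the log2 scale Bcl6b fell by 0.75 ± 0.08 (± SE, adjusted p = 1.3e-07), with a value of -0.81 once the Adipoq libraries were left out (adjusted p = 2.5e-06). In control mice it lay at 32.8 to 47.6 CPM (median 39.4), and vehicle differed from control by -0.13 ± 0.09 (adjusted p = 0.21). For the comparison of vehicle with control, 57.9% of the tested genes were called, and both comparisons use the same vehicle libraries.

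Plxnd1, the semaphorin receptor of endothelium that restrains sprouting, fell by 0.46 on the log2 scale. Under nintedanib Plxnd1 measured 130.4 to 187 CPM (median 154), and under vehicle 179 to 259 CPM (median 211). In 15 of 17 nintedanib mice its level was below that of every vehicle mouse (-0.46 ± 0.06, adjusted p = 1.1e-06, -0.44 without the Adipoq libraries). Pcdh17, a protocadherin, had a change of -0.73 ± 0.09 (adjusted p = 1.8e-06) and lay below every vehicle mouse in 14 of 17 nintedanib mice. Pcdh12, the endothelial protocadherin, changed by -0.64 ± 0.09 (adjusted p = 2.8e-05) with 15 of 17 below. Aplnr, the apelin receptor of general capillary endothelium, fell further. With vehicle, Aplnr stood at 29.4 to 61.8 CPM (median 38.4), and with nintedanib at 11.9 to 41 CPM (median 20.6). With -0.84 ± 0.12 (adjusted p = 1.5e-05), 15 of 17 nintedanib mice lay below all vehicle mice, and 1 lay above the vehicle median. Control mice lay at 56.4 to 82 CPM (median 65.6), above most mice of both bleomycin groups. Gem, a small GTPase, changed by -0.49 ± 0.07 (adjusted p = 1.2e-05) and Nxpe4 by -0.44 ± 0.06 (adjusted p = 4.6e-06), each below the vehicle median in 17 of 17 mice, which is written below as lower in 17 of 17 mice. All 10 of these genes kept their calls without the Adipoq libraries, and in each of 33 fits that left out 1 nintedanib or vehicle library.

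**Figure D2:**
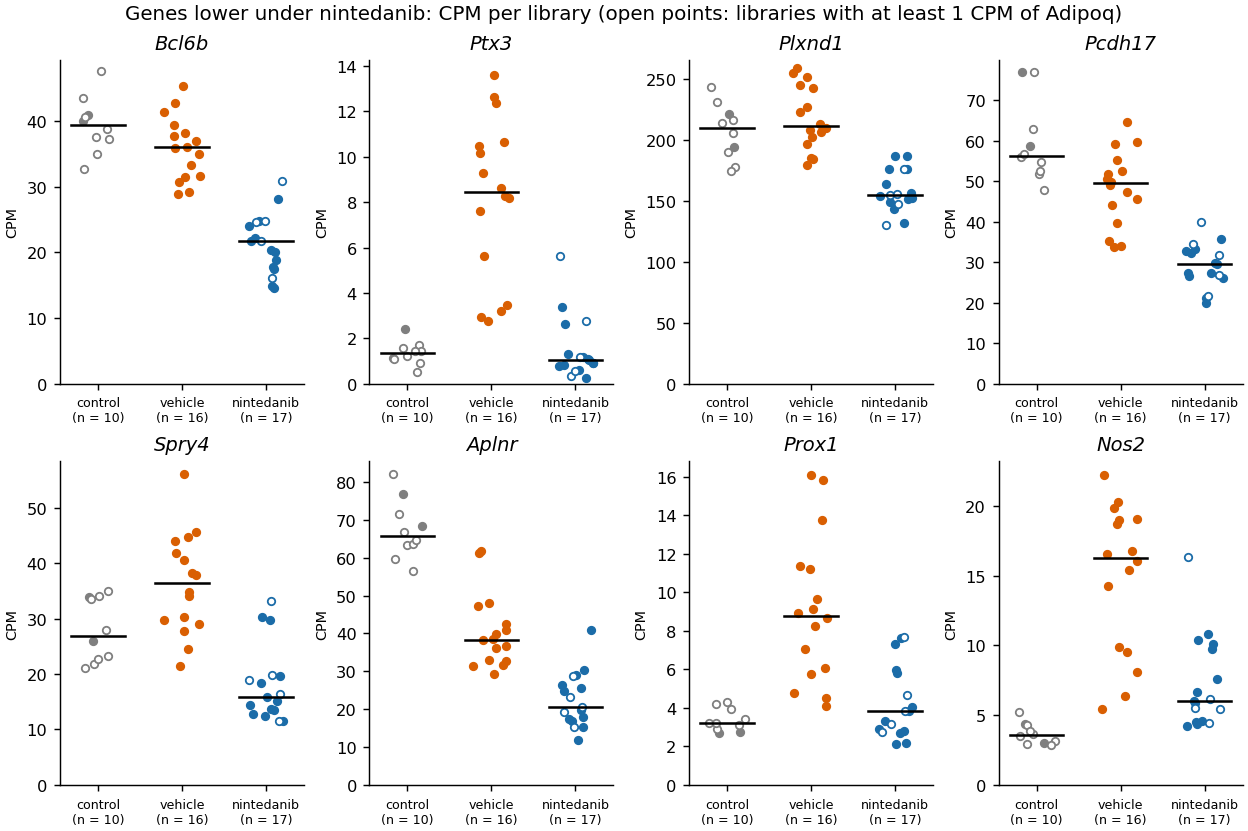
CPM per library of 8 genes lower under nintedanib, by group, with medians as bars and open points for libraries with at least 1 CPM of Adipoq. Nintedanib mice sit below nearly all vehicle mice for Bcl6b, Plxnd1, Pcdh17, Spry4 and Aplnr, and the highest nintedanib point is an open one for Bcl6b, Ptx3, Pcdh17, Spry4, Prox1 and Nos2.

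The largest fall among genes whose average log2 CPM was at least 2 was that of Ptx3, which encodes pentraxin 3, a secreted pattern recognition protein made during inflammation. Ptx3 ran from 2.75 to 13.6 CPM (median 8.45) in the vehicle group and from 0.257 to 5.62 CPM (median 1.06) in the nintedanib group. In 14 of 17 nintedanib mice Ptx3 was lower than in any vehicle mouse, while control mice lay at 0.534 to 2.4 CPM (median 1.34), below every vehicle mouse. The change was -2.43 ± 0.30 (adjusted p = 1.1e-06) and -2.69 without the Adipoq libraries, while vehicle exceeded control by 2.59 ± 0.37 (adjusted p = 1.1e-07). Plk2, a polo-like kinase induced by p53 and by growth factors, showed a smaller fall. Plk2 lay at 72 to 109 CPM (median 85.3) under nintedanib and at 90.4 to 156 CPM (median 131) under vehicle. All 17 nintedanib mice lay below the vehicle median and 12 below every vehicle mouse (-0.55 ± 0.08, adjusted p = 7.9e-06). With all libraries Plk2 was the only gene called by edgeR's main fit among 18 tested p53 and senescence genes (median 0.03, and 0.05 without the Adipoq libraries, where it was again the only call). With DESeq2, and within the largest number series, 1 was higher and 2 lower, and with 2 surrogate variables 2 higher and 1 lower. Over the 33 fits that left out 1 library, 0 to 1 was higher and 1 to 2 lower. Cdkn1a, the cell cycle inhibitor p21 of that list, was at 0.13 ± 0.10 (95% interval -0.06 to 0.33, not adjusted over genes, as all intervals here, adjusted p = 0.41).

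Promoter sequences are shown for these 2 genes, the first by p of the named genes whose promoter holds any of 6 motifs searched on both strands. The sequences are RefSeq's (GRCm38.p6), from 250 bases before to 50 bases after the start, with matches in capitals. Ptx3 (chr3:66219637-66219936, plus strand) has overlapping matches to the NF-kB consensus from its start site on. Plk2 (chr13:110394794-110395093, plus strand) has the cAMP response element TGACGTCA, which begins 62 bases before the start.
Ptx3: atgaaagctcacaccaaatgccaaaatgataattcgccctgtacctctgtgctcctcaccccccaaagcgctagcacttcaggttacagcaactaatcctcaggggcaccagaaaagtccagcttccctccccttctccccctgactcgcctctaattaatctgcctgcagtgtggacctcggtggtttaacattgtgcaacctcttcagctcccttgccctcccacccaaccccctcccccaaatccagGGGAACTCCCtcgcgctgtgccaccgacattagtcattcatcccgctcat
Plk2: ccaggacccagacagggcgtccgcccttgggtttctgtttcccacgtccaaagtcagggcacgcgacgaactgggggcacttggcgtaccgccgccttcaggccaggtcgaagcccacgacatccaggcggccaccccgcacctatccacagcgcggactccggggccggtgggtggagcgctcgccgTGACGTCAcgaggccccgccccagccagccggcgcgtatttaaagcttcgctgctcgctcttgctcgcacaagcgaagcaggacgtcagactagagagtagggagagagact
Among 11568 tested genes with a promoter window, the NF-kB consensus was present in 14.6%, in 16.1% of 471 genes called lower and in 14.2% of 359 called higher. In the same order, the cAMP response element was present in 3.33%, 2.55% and 2.23%. For TGANTCA, the AP-1 motif, the shares were 6.86%, 4.67% and 6.69%, for CCGGAA, the ETS core, 28.3%, 25.7% and 18.9%, and for the CArG box 1.59%, 1.06% and 1.67%. None of these shares was tested, and a match is a string of letters and not a binding site.

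Of the 13 kinases that nintedanib inhibits, 4 were lower and 1 higher at the RNA level, with a median of -0.12 against -0.002 over all genes (2 lower and 0 higher without the Adipoq libraries, 4 and 1 within the largest number series). The strongest call was Flt4, the VEGF-C receptor of lymphatic vessels (chromosome 11, 49609263 to 49652739). Nintedanib mice had 34.1 to 68.9 CPM (median 48.2) and vehicle mice 44.2 to 85.4 CPM (median 71.2) of Flt4. All 17 nintedanib mice lay below the vehicle median (-0.47 ± 0.08, adjusted p = 0.00035, -0.47 without the Adipoq libraries). Lyn, a Src family kinase of blood cells, changed by -0.22 ± 0.04 (adjusted p = 0.0014), and it too was called without those libraries. Flt3, the receptor that drives dendritic cell development, changed by -0.57 ± 0.16 (adjusted p = 0.024) and Pdgfrb, the PDGF receptor of pericytes, by -0.40 ± 0.12 (adjusted p = 0.03). Both missed the threshold without the Adipoq libraries (adjusted p = 0.14 and 0.098), and Pdgfrb also without vehicle replicate 4 or 14 (adjusted p up to 0.063). Pdgfra, the PDGF receptor of alveolar fibroblasts, rose. Under nintedanib Pdgfra measured 192 to 403 CPM (median 277), and under vehicle 87.6 to 299.7 CPM (median 202). It was above the vehicle median in 16 of 17 nintedanib mice (0.43 ± 0.11, adjusted p = 0.012), with 0.40 without the Adipoq libraries (adjusted p = 0.068). Kdr, the main VEGF receptor of blood vessels, was at -0.20 ± 0.10 (95% interval -0.41 to 0.00, adjusted p = 0.21), Flt1 at -0.05 ± 0.09 (-0.22 to 0.12, adjusted p = 0.77) and Fgfr1 at -0.12 ± 0.08 (-0.29 to 0.05, adjusted p = 0.38). Vehicle minus control was -1.05 ± 0.12 for Kdr and -0.68 ± 0.10 for Flt1 (adjusted p = 5.9e-10 and 1.5e-07). Among 16 tested ligands of these receptors only Pgf, placental growth factor, was called in all libraries (median of the list 0.10). With vehicle, Pgf stood at 6.17 to 19.1 CPM (median 11), and with nintedanib at 4.59 to 12.7 CPM (median 7.07). It was lower in 16 of 17 mice (-0.50 ± 0.14, adjusted p = 0.023), and without the Adipoq libraries the value was -0.55 (adjusted p = 0.0527).

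Of 17 genes of ERK feedback and output 2 were lower (11.8%, against 4.10% of all genes, and 1 without the Adipoq libraries), and the median was -0.17. Spry4, a Sprouty protein that inhibits receptor tyrosine kinase signalling, was the stronger. Spry4 ran from 21.4 to 56.2 CPM (median 36.4) in the vehicle group and from 11.5 to 33.2 CPM (median 15.8) in the nintedanib group. In 14 of 17 nintedanib mice Spry4 was below every vehicle mouse (-1.01 ± 0.14, adjusted p = 7.9e-06), and the fall was -1.07 without the Adipoq libraries (adjusted p = 0.00014). Control mice lay at 21.1 to 35 CPM (median 26.9), between the medians of the bleomycin groups. Dusp6, the phosphatase that removes the activating phosphates of ERK, changed by -0.37 ± 0.10 (adjusted p = 0.014), with 11 of 17 mice below all vehicle mice but 4 above the vehicle median, and was at -0.38 without the Adipoq libraries (adjusted p = 0.058). Spry2 was at 0.02 ± 0.07 (95% interval -0.13 to 0.17, adjusted p = 0.9).

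Among 26 early response genes 5 were lower and none higher, with a median of -0.28, and 3 were lower without the Adipoq libraries (median -0.27). Without vehicle replicate 10 the count was 8. Apold1, an endothelial early response gene, led them. Apold1 lay at 1.67 to 4.43 CPM (median 2.61) under nintedanib and at 2.4 to 9.41 CPM (median 5.59) under vehicle. The change was -1.17 ± 0.17 (adjusted p = 2.8e-05) and all 17 nintedanib mice lay below the vehicle median. Egr1 and Egr3, zinc finger factors induced within minutes by ERK, changed by -1.03 ± 0.29 (adjusted p = 0.023) and -1.01 ± 0.24 (adjusted p = 0.0072). Nintedanib mice had 15.9 to 181 CPM (median 36.4) and vehicle mice 32.7 to 211 CPM (median 106) of Egr1. Egr1 thus varied widely within both groups, and 2 of 17 nintedanib mice lay above the vehicle median. Control mice, at 69.9 to 464 CPM (median 151), had more Egr1 than vehicle mice (-0.94 ± 0.32, adjusted p = 0.011). Ier2 had a change of -0.43 ± 0.12 (adjusted p = 0.024) and Nr4a1, an orphan nuclear receptor, of -0.94 ± 0.27 (adjusted p = 0.029). The call of Nr4a1 was lost without vehicle replicate 5 (adjusted p = 0.053), and those of Egr1 and Nr4a1 without the Adipoq libraries (adjusted p = 0.089 and 0.1). Fos was at -0.40 ± 0.27 (95% interval -0.94 to 0.14, adjusted p = 0.37).

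Of 22 VEGF-responsive and tip cell genes 6 were lower and none higher, against 4.10% of all genes, with a median of -0.12 (4 without the Adipoq libraries, median -0.15). Within the largest number series 7 were lower and 1 higher, and likewise with 2 surrogate variables. Beside Plxnd1 and Aplnr the 6 lower in all libraries were Apln, Unc5b, Nrp2 and Trp53i11. Apln encodes apelin, the ligand of Aplnr that tip cells secrete (chromosome X, 48025146 to 48034853). Under nintedanib Apln measured 8.16 to 22.6 CPM (median 13.4), and under vehicle 9.82 to 34.2 CPM (median 24.1). All 17 nintedanib mice lay below the vehicle median (-0.72 ± 0.13, adjusted p = 0.00079, -0.84 without the Adipoq libraries). Control mice had levels at 39.5 to 56.9 CPM (median 43.4), higher than every bleomycin mouse. Unc5b, a netrin receptor of tip cells, changed by -0.61 ± 0.12 (adjusted p = 0.0014). With vehicle, Unc5b stood at 34.7 to 78 CPM (median 65.5), and with nintedanib at 25.6 to 62.5 CPM (median 36.7). Here control mice, at 25 to 38.7 CPM (median 33.6), lay within or below the nintedanib range, with vehicle above control by 0.81 ± 0.14 (adjusted p = 4.6e-06). Nrp2, a co-receptor for VEGF-C, changed by -0.36 ± 0.09 (adjusted p = 0.011, lower in 17 of 17 mice, adjusted p = 0.06 without the Adipoq libraries). Trp53i11 changed by -0.32 ± 0.10 (adjusted p = 0.042), a call lost in 17 of the 33 fits that left out 1 library.

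Of 20 endothelial markers 3 were lower and none higher: Emcn, the endothelial sialomucin endomucin (-0.31 ± 0.07, adjusted p = 0.0029), Ushbp1 (-0.35 ± 0.08, adjusted p = 0.0053) and Ecscr (-0.25 ± 0.07, adjusted p = 0.033, lost in 10 of the 33 fits). The list's median was -0.08 and its summed level ran from 3200 to 7500 CPM under vehicle and from 3950 to 6570 under nintedanib, so the groups overlapped throughout. Without the Adipoq libraries 2 were lower, and with 2 surrogate variables 6. Among 13 general capillary genes Aplnr was lower and Sema3c, a secreted semaphorin, was higher (0.39 ± 0.12, adjusted p = 0.032, adjusted p = 0.1 without the Adipoq libraries), with a median of 0.13. Among 13 aerocyte genes, the capillary cells that face the alveolar gas, Sirpa (-0.37 ± 0.11, adjusted p = 0.039) and Car4 (-0.45 ± 0.14, adjusted p = 0.043) were lower and the median was 0.01. Neither was called without the Adipoq libraries (adjusted p = 0.16 and 0.083), and the calls were lost in 14 and 13 of the 33 fits. Sema3c lost its call in 6 of them.

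Of 10 tested markers of lymphatic endothelium 5 were lower and 1 higher, and the count of 5 lower was the same without the Adipoq libraries, within the largest number series and in each of the 33 fits that left out 1 library. Prox1, the transcription factor that specifies lymphatic identity, showed the largest fall (chromosome 1, 190118035 to 190170714). Prox1 ran from 4.08 to 16.1 CPM (median 8.8) in the vehicle group and from 2.12 to 7.68 CPM (median 3.84) in the nintedanib group. In 11 of 17 nintedanib mice Prox1 was below every vehicle mouse, and the change was -1.08 ± 0.19 (adjusted p = 0.00042, -1.10 without the Adipoq libraries). Control mice lay at 2.71 to 4.3 CPM (median 3.21), and vehicle exceeded control by 1.43 ± 0.23 (adjusted p = 1.3e-06). Stab2, a hyaluronan scavenger receptor, changed by -0.85 ± 0.20 (adjusted p = 0.0072), Reln, which encodes reelin, by -0.53 ± 0.13 (adjusted p = 0.0083), Mmrn1, the matrix glycoprotein multimerin, by -0.48 ± 0.11 (adjusted p = 0.007) and Flt4 as given above. For Stab2, Reln and Mmrn1 the vehicle group was also above control, by 1.70 ± 0.25, 1.12 ± 0.15 and 1.09 ± 0.13. Lyve1, the hyaluronan receptor of lymphatic vessels that interstitial macrophages carry as well, moved the other way. Lyve1 lay at 119.9 to 324 CPM (median 208) under nintedanib and at 59.8 to 309 CPM (median 116) under vehicle. All 17 nintedanib mice lay above the vehicle median (0.57 ± 0.18, adjusted p = 0.0469), but the call was lost in 24 of the 33 fits and once the Adipoq libraries were left out (adjusted p = 0.15).

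The called pericyte genes were lower, and most called smooth muscle genes higher. Of 13 pericyte genes 3 were lower and none higher (median -0.10): Higd1b (-0.31 ± 0.08, adjusted p = 0.019), Cspg4, the NG2 proteoglycan (-0.50 ± 0.14, adjusted p = 0.02), and Rgs5, a regulator of G protein signalling. Nintedanib mice had 4.18 to 44.8 CPM (median 10.3) and vehicle mice 7.22 to 46 CPM (median 25.2) of Rgs5. Rgs5 was lower in 16 of 17 mice (-0.89 ± 0.28, adjusted p = 0.045), with the call lost in 23 of the 33 fits, though held without the Adipoq libraries (-1.10, adjusted p = 0.036), where it was the only pericyte gene called. Of 12 smooth muscle genes 4 were higher and 1 lower (median 0.28). Myh11, the smooth muscle myosin heavy chain, changed by 0.50 ± 0.13 (adjusted p = 0.012), Lmod1, an actin nucleator, by 0.42 ± 0.10 (adjusted p = 0.0096), Cnn1, calponin, by 0.99 ± 0.24 (adjusted p = 0.011) and Synpo2 by 0.34 ± 0.10 (adjusted p = 0.031). Under nintedanib Cnn1 measured 11.3 to 112 CPM (median 19.1), and under vehicle 6.8 to 26.1 CPM (median 12.7). The highest nintedanib value lay far above the others. Without the Adipoq libraries Cnn1 was at 0.36 (adjusted p = 0.15) and the list's median at 0.07, with Myh11 (0.31, adjusted p = 0.026) still higher and Smtn, smoothelin, lower, as in all libraries (-0.27 ± 0.08, adjusted p = 0.042). Smtn and Synpo2 lost their calls in 17 and 4 of the 33 fits, and with 2 surrogate variables 7 genes of the list were higher. The part of fat and airway tissue in the smooth muscle counts was not tested further.

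**Figure D3:**
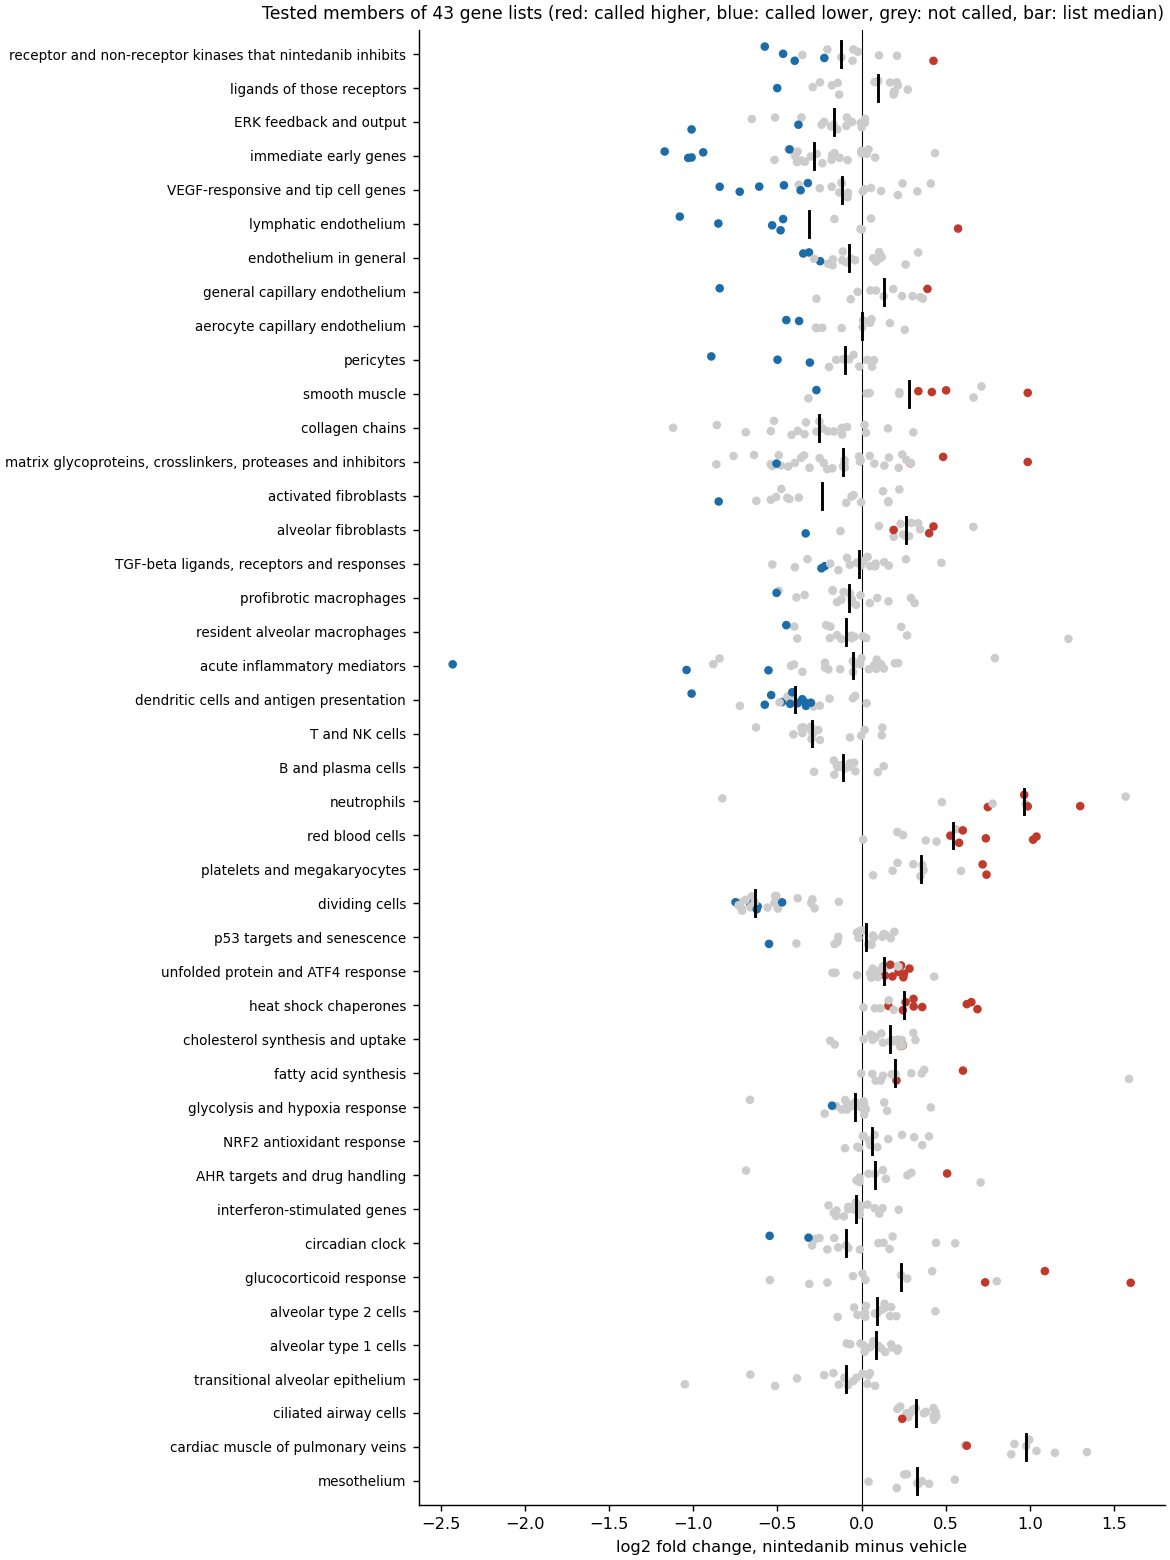
Log2 fold change (nintedanib minus vehicle) of each tested member of 43 gene lists, with called members in red (higher) or blue (lower) and the list median as a bar. Blue points gather in the vascular, early response and dendritic rows, red points in the chaperone rows, and no collagen is called; the fat cell, club cell and mast cell lists, with values up to 8.57, are not drawn.

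Of 27 tested acute inflammatory mediators 3 were lower and none higher (2 without the Adipoq libraries), with a median of -0.05. Beside Ptx3 these were Nos2 and Lif. Nos2 encodes the inducible nitric oxide synthase (chromosome 11, 78920787 to 78960254). With vehicle, Nos2 stood at 5.41 to 22.2 CPM (median 16.3), and with nintedanib at 4.22 to 16.3 CPM (median 6.03). It was lower in 16 of 17 mice (-1.04 ± 0.18, adjusted p = 0.00047, -1.07 without the Adipoq libraries), and 5 lay below every vehicle mouse. Control mice lay at 2.85 to 5.25 CPM (median 3.57), below every vehicle mouse and most nintedanib mice. Lif, a cytokine of the interleukin 6 family, changed by -0.55 ± 0.15 (adjusted p = 0.024, adjusted p = 0.067 without the Adipoq libraries), with vehicle above control by 1.70 ± 0.19.

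Of 22 dendritic cell and antigen presentation genes 11 were lower and none higher, 21 of 22 had negative values, and the median was -0.39. Fscn1, fascin, the actin bundler of mature dendritic cells, led them. Fscn1 ran from 22 to 131 CPM (median 52.8) in the vehicle group and from 14.7 to 62 CPM (median 23.6) in the nintedanib group. It was lower in 15 of 17 mice (-1.01 ± 0.21, adjusted p = 0.0029, -1.02 without the Adipoq libraries). Relb, an NF-kB subunit needed for dendritic cell maturation, changed by -0.30 ± 0.07 (adjusted p = 0.0081), Irf8, a lineage factor of these cells, by -0.35 ± 0.09 (adjusted p = 0.018) and Ccr7, the receptor that guides them to lymph nodes, by -0.54 ± 0.15 (adjusted p = 0.024, and 0.051 without vehicle replicate 4). The class II genes H2-Ab1 (-0.42 ± 0.12, adjusted p = 0.023), H2-Aa, H2-Eb1 and Cd74 and their activator Ciita were lower by 0.33 to 0.42 on the log2 scale, and Batf3 and Flt3 were lower as well. Of the 33 fits that left out 1 library, Batf3 lost its call in 20, H2-Aa and Cd74 in 15 each, H2-Eb1 in 12 and Ciita in 9. The sum of the list ran from 2770 to 6210 CPM under vehicle (median 3960), from 2420 to 4530 under nintedanib (median 3100) and from 2190 to 3160 in control mice. Without the Adipoq libraries 2 remained called, Fscn1 and Relb, with a median of -0.34, and over the 33 fits the count lay between 5 (without vehicle replicate 4) and 15. The count was 6 without the control libraries, 7 with 2 surrogate variables and 17 within the largest number series. Of 16 T and NK cell genes and 14 B and plasma cell genes none was called by edgeR or DESeq2 in all libraries, with 1 and 2 at an unadjusted p under 0.05 and medians of -0.29 and -0.11, and with 2 surrogate variables 1 B and plasma cell gene was higher. Foxp3, the regulatory T cell factor, was at -0.63 ± 0.29 (adjusted p = 0.17) and Cd4 at -0.40 ± 0.24 (adjusted p = 0.3).

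Some neutrophil genes were higher: 4 of 9 were higher and none lower, with a median of 0.97, and all 4 were called without the Adipoq libraries (median 0.90). S100a9 and S100a8 form calprotectin, the main cytosolic protein of neutrophils. S100a9 lay at 8.82 to 251 CPM (median 28) under nintedanib and at 3.76 to 34.8 CPM (median 13.9) under vehicle. It was above the vehicle median in 15 of 17 mice (1.30 ± 0.34, adjusted p = 0.016). Csf3r, the G-CSF receptor, changed by 0.75 ± 0.20 (adjusted p = 0.019), S100a8 by 0.97 ± 0.28 (adjusted p = 0.027) and Mmp9, the gelatinase that neutrophils store, by 0.99 ± 0.27 (adjusted p = 0.02). Most of these calls were lost without nintedanib replicate 15, where S100a9, S100a8 and Mmp9 had adjusted p of 0.063, 0.094 and 0.058, and 1 of the 9 genes was called higher and 1 lower. Within the largest number series 1 was called higher. The list's sum ran from 64.7 to 289 CPM under vehicle (median 103), from 86.8 to 900 under nintedanib (median 135) and from 75.2 to 339 in control mice (median 163). Mast cell genes Cma1 (1.62 ± 0.45), Tpsb2 (2.67 ± 0.78) and Mcpt4 (1.17 ± 0.37) were called higher among 8 tested mast cell, basophil and eosinophil genes, at adjusted p of 0.022, 0.03 and 0.044. Their vehicle medians were only 0.17, 0.0277 and 0.322 CPM, and none was called without the Adipoq libraries, where Tpsb2 was too low to be tested (median of the list 0.20, then 0.06). Without the control libraries only 3 of the 8 genes had enough counts to be tested, and none was called. The list's sum hardly differed, at 115 to 214 CPM under vehicle (median 154) and 118 to 205 under nintedanib (median 155). Mcpt4 lost its call in 15 of the 33 fits, and Cma1 without nintedanib replicate 1 or 7 (adjusted p up to 0.076). Of 21 profibrotic macrophage genes 1 was called, Mmp14, lower (median -0.07), and of 16 alveolar macrophage genes 1, Car4, lower (median -0.09), and neither list had a call without the Adipoq libraries. Of 18 interferon-stimulated genes none was called by edgeR or DESeq2, with 1 at an unadjusted p under 0.05 (median -0.03).

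No collagen gene passed the test in all libraries. Of 21 tested chains none was called by edgeR, 2 had an unadjusted p under 0.05 and DESeq2 called none. The median was -0.25, and 17 of 21 had negative values. Leaving out single libraries gave 2 lower chains without vehicle replicate 10 and 1 without vehicle replicate 13, nintedanib replicate 8 or nintedanib replicate 12, and with 2 surrogate variables the median was 0.10. Col1a1, the main chain of type I collagen (chromosome 11, 94936224 to 94953042), varied more in vehicle mice. Nintedanib mice had 305 to 1285 CPM (median 458) and vehicle mice 248 to 3823 CPM (median 566) of Col1a1. The nintedanib mice lay within the vehicle range, 13 of 17 below its median, and the change was -0.52 ± 0.27 (95% interval -1.07 to 0.03, adjusted p = 0.23). For Col1a2 the value was -0.38 ± 0.21 (interval -0.81 to 0.05, adjusted p = 0.27) and for Col3a1 -0.23 ± 0.16 (interval -0.56 to 0.09, adjusted p = 0.38). Without vehicle replicate 4 these values were -0.08, -0.08 and -0.11, and the lowest with 1 library left out were -0.65, -0.46 and -0.29. Vehicle mice exceeded control mice by 1.97 ± 0.34 for Col1a1 and 1.95 ± 0.20 for Col3a1. The smallest p among collagens were those of Col24a1 (-0.69 ± 0.25, adjusted p = 0.079) and Col15a1 (-0.54 ± 0.21, adjusted p = 0.1). Summed over the chains, vehicle mice had 3550 to 16900 CPM (median 8170), nintedanib mice 3500 to 10500 (median 6660) and control mice 2960 to 3680 (median 3220).

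Fn1, fibronectin, was at -0.25 ± 0.22 (95% interval -0.70 to 0.20, adjusted p = 0.51), Timp1, the protease inhibitor, at -0.10 ± 0.27 (-0.65 to 0.45, adjusted p = 0.86) and Postn, periostin, at -0.002 ± 0.09 (-0.18 to 0.17, adjusted p = 0.99). Spp1, osteopontin, which profibrotic macrophages secrete, did not pass the threshold, with 14 of 17 nintedanib mice below the vehicle median. Under nintedanib Spp1 measured 407 to 1967 CPM (median 1265), and under vehicle 553 to 3031 CPM (median 1670). Its value was -0.49 ± 0.21 (-0.92 to -0.06, adjusted p = 0.14), against 4.50 ± 0.31 for vehicle minus control. Grem1, a BMP antagonist of activated fibroblasts, was at -0.54 ± 0.34 (-1.23 to 0.15, adjusted p = 0.33) and the contractile gene Acta2 at 0.23 ± 0.17 (-0.11 to 0.56, adjusted p = 0.41). Without vehicle replicate 4 Fn1 was at -0.08, Grem1 at -0.06 and Acta2 at 0.40. With 2 surrogate variables in the fit the values of Col1a1, Col1a2, Col3a1, Fn1, Timp1, Postn and Grem1 had the opposite sign (0.08 to 0.41), and none was called.

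Single genes of matrix turnover were called. Of 35 matrix remodelling genes 3 were higher and 1 lower (11.4%, against 7.31% of all tested genes), with a median of -0.11. Without the Adipoq libraries 2 were higher and 0 lower, and without the control libraries 3 and 0. With 2 surrogate variables 7 were higher and 0 lower, with a median of 0.14. Mmp3, stromelysin, was above the vehicle median in 16 of 17 mice. With vehicle, Mmp3 stood at 14.7 to 40.9 CPM (median 23.9), and with nintedanib at 21.9 to 47.6 CPM (median 31.8). The change was 0.49 ± 0.11 (adjusted p = 0.0045), and its value with the Adipoq libraries left out was 0.40 (adjusted p = 0.067). P4ha1, a subunit of the prolyl hydroxylase that collagen needs, rose by 0.29 ± 0.07 (adjusted p = 0.0053), with 11 of 17 mice above every vehicle mouse, and kept its call without those libraries. Mmp9 is given above, and Mmp14, the membrane collagenase, was at -0.51 ± 0.16 (adjusted p = 0.0496), a call lost in 23 of the 33 fits. Of 16 activated fibroblast genes only Ccn4, a matricellular target of Wnt signals, was called. Ccn4 ran from 6.75 to 37.2 CPM (median 15) in the vehicle group and from 2.17 to 23.3 CPM (median 6.42) in the nintedanib group. In all, 10 of 17 nintedanib mice lay below every vehicle mouse, with -0.85 ± 0.24 (adjusted p = 0.027), and the value was -1.0 when the Adipoq libraries were left out (adjusted p = 0.025). Without vehicle replicate 4 the adjusted p was 0.065. The list's median was -0.23. Of 20 TGF-beta genes the ligands Tgfb1 (-0.24 ± 0.07, adjusted p = 0.021) and Tgfb2 (-0.22 ± 0.06, adjusted p = 0.031) were lower (10%, against 4.10% of all genes). The median of that list was -0.01, with no call without the Adipoq libraries. Among 15 alveolar fibroblast genes, with a median of 0.26, Pdgfra, Gpc3, a glypican (0.40 ± 0.12, adjusted p = 0.034), and Macf1 (0.19 ± 0.06, adjusted p = 0.038) were higher and Scn7a was lower (-0.33 ± 0.10, adjusted p = 0.029). None of these 4 passed without the Adipoq libraries, where the median was 0.28. The calls of Macf1, Gpc3 and Tgfb2 were lost in 16, 5 and 3 of the 33 fits, and that of Scn7a without vehicle replicate 3 (adjusted p = 0.051).

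**Figure D4:**
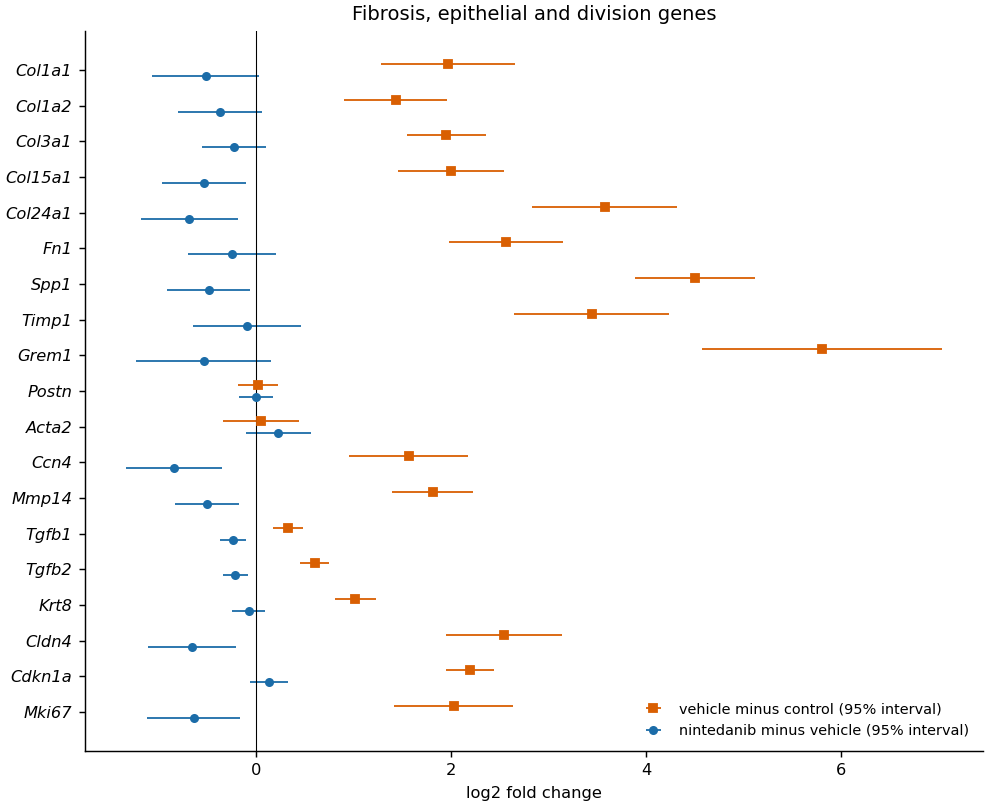
Log2 fold change with 95% intervals for 19 genes of fibrosis, injured epithelium and cell division, nintedanib minus vehicle in blue and vehicle minus control in orange (the vehicle libraries are shared). The blue intervals of Col1a1, Col1a2, Col3a1, Fn1, Timp1, Grem1, Postn, Acta2, Krt8 and Cdkn1a include 0, and the blue points run from -0.85 (Ccn4) to 0.23 (Acta2).

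All 27 tested cell division genes had values below 0. Of these, 5 were called lower (Ccne2, Bub1b, Ccnb2, Ccne1 and Aurka) and the median was -0.63 (1 called and -0.64 without the Adipoq libraries). Ccne2, cyclin E2, changed by -0.47 ± 0.14 (adjusted p = 0.029), Bub1b, a spindle checkpoint kinase, by -0.66 ± 0.19 (adjusted p = 0.031) and Ccnb2, cyclin B2, by -0.75 ± 0.23 (adjusted p = 0.037). The proliferation marker Mki67 did not pass. Mki67 lay at 15.6 to 64.2 CPM (median 29.8) under nintedanib and at 13.1 to 99.5 CPM (median 61.3) under vehicle. Both groups spanned a wide range, with 13 of 17 nintedanib mice below the vehicle median (-0.64 ± 0.24, 95% interval -1.12 to -0.16, adjusted p = 0.085). Kif4, a mitotic kinesin among the 12 largest falls, changed by -0.86 ± 0.20 (adjusted p = 0.0074) and was called in each of the 33 fits. The count of called genes in the list depended on single mice. It was 0 without vehicle replicate 2 or nintedanib replicate 1, and 23, 18 and 14 without vehicle replicates 10, 13 and 5. Within the largest number series and with 2 surrogate variables it was 0 as well, with medians of -0.57 and -0.27, and DESeq2 called 10. Aurka lost its call in 22 of the 33 fits, Ccne1 in 21, Ccnb2 in 17, Bub1b in 4 and Ccne2 in 3. The list's sum was 243 to 922 CPM under vehicle (median 590), 274 to 679 under nintedanib (median 377) and 237 to 274 in control mice.

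Several heat shock chaperones rose. Of 14 heat shock genes 9 were higher and none lower, all 14 had positive values and the median was 0.25, against 3.21% of all genes called higher. Without the Adipoq libraries 6 were called and the median was 0.27, and within the largest number series 10 were called. Hsph1, which encodes the co-chaperone HSP110, led them (chromosome 5, 149614287 to 149636376). Nintedanib mice had 44.6 to 132 CPM (median 81.4) and vehicle mice 35.4 to 65.3 CPM (median 53.3) of Hsph1. In 14 of 17 nintedanib mice it was above every vehicle mouse (0.65 ± 0.11, adjusted p = 0.00036, 0.65 without the Adipoq libraries). Hsp90aa1, the inducible HSP90, changed by 0.31 ± 0.06 (adjusted p = 0.0027), Hspa4l by 0.36 ± 0.08 (adjusted p = 0.0077) and Hspa1a, the inducible HSP70, by 0.63 ± 0.16 (adjusted p = 0.016). Reads of Hspa1a and its near-identical neighbour Hspa1b could be divided between the copies, so their separate values are uncertain. Vehicle minus control was -0.15 ± 0.13 for Hsph1 (adjusted p = 0.31).

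Of 25 genes of the unfolded protein and ATF4 response 8 were higher and none lower, with 22 positive values and a median of 0.13 (4 without the Adipoq libraries, median 0.11). Within the largest number series 9 were called, and with 2 surrogate variables 14. The changes were small and regular. Dnajc3, an inhibitor of the stress kinase PERK, is an example. Under nintedanib Dnajc3 measured 228 to 300.5 CPM (median 270.3), and under vehicle 204 to 252 CPM (median 237). It was above the vehicle median in 16 of 17 mice and above every vehicle mouse in 11 (0.18 ± 0.04, adjusted p = 0.0032). Creld2 changed by 0.22 ± 0.05 (adjusted p = 0.0092), Herpud1, of the degradation pathway of the endoplasmic reticulum, by 0.28 ± 0.07 (adjusted p = 0.013) and Dnajb9 by 0.24 ± 0.06 (adjusted p = 0.016). Hspa5, the lumenal HSP70 known as BiP, changed by 0.25 ± 0.07 (adjusted p = 0.017) and Hsp90b1 by 0.14 ± 0.04 (adjusted p = 0.023). Of these 6, Creld2 and Hsp90b1 missed the threshold without the Adipoq libraries (adjusted p = 0.0509 and 0.07).

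The promoters of 4 of these genes hold the endoplasmic reticulum stress element, CCAAT and CCACG with 9 bases between them on either strand. It was present in 19 of 11568 promoters (0.164%), in 4 of 359 of genes called higher (1.11%) and in 0 of 471 of genes called lower. The 4 among the genes called higher were Creld2, Dnajc3, Hsp90b1 and Hspa5, out of 7 called members of this list with a promoter window. They are shown because these genes moved together, and this set was chosen after the values were seen. Capitals mark the element and any other match, which are the NF-kB consensus in Creld2 and TGANTCA in Hspa5. The windows are Dnajc3 (chr14:118937682-118937981, plus strand), Creld2 (chr15:88819396-88819695, plus strand), Hspa5 (chr2:34771840-34772139, plus strand) and Hsp90b1 (chr10:86705395-86705694, minus strand, shown 5′ to 3′ for the gene).
Dnajc3: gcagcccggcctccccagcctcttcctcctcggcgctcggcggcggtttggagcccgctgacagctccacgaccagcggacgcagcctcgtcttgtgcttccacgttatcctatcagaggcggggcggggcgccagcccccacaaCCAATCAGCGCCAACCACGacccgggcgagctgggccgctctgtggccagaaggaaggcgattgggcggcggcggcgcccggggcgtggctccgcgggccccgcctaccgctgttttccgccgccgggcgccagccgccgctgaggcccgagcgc
Creld2: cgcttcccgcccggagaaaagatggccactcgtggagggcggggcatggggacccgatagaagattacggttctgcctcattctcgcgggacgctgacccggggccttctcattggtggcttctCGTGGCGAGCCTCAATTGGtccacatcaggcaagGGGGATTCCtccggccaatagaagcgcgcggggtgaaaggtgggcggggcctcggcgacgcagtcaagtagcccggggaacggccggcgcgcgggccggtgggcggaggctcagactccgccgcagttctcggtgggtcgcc
Hspa5: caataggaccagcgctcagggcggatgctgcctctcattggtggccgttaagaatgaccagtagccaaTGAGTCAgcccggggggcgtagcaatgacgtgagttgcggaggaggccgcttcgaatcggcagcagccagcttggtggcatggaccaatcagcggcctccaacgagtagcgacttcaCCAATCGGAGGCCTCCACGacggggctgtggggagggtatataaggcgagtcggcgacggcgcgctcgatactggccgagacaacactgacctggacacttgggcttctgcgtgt
Hsp90b1: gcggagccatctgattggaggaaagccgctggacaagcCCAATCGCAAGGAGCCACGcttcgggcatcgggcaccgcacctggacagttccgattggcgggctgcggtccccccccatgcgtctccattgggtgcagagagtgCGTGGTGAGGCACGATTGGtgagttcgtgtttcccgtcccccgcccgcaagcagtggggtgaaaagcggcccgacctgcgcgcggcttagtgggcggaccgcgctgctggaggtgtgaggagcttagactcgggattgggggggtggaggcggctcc

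**Figure D5:**
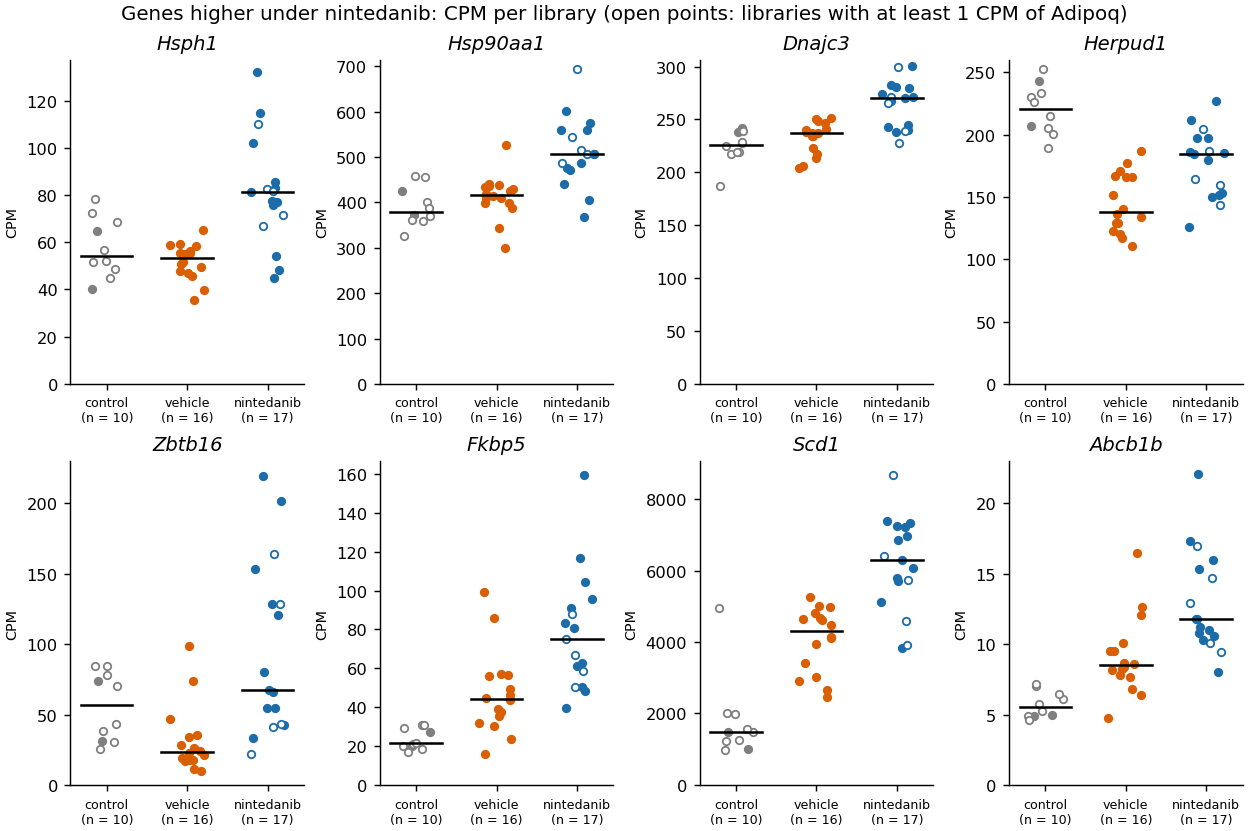
CPM per library of 8 genes higher under nintedanib, by group, with medians as bars and open points for libraries with at least 1 CPM of Adipoq. The nintedanib medians lie above the vehicle medians in all 8, most regularly for Hsph1, Dnajc3 and Scd1, and most loosely for Zbtb16.

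Of 13 glucocorticoid response genes 3 were higher and none lower (median 0.23, and 5 and 1 without vehicle replicate 13), and 4 were called without the Adipoq libraries, Pdk4 being the addition (0.67, adjusted p = 0.011). Zbtb16, a zinc finger repressor that rises with steroid hormones, led them in size. With vehicle, Zbtb16 stood at 10.1 to 98.5 CPM (median 23.6), and with nintedanib at 22.2 to 219.5 CPM (median 67.4). It was above the vehicle median in 16 of 17 mice (1.59 ± 0.31, adjusted p = 0.0014, 1.69 without the Adipoq libraries). Fam107a changed by 1.09 ± 0.21 (adjusted p = 0.0014, higher in 17 of 17 mice) and Fkbp5, a co-chaperone that dampens the glucocorticoid receptor, by 0.73 ± 0.18 (adjusted p = 0.011). Fkbp5 ran from 15.7 to 99.4 CPM (median 44.3) in the vehicle group and from 39.6 to 159 CPM (median 75) in the nintedanib group. Control mice lay at 17.1 to 30.9 CPM (median 21.4), below every nintedanib mouse. Clock genes Dbp (-0.55 ± 0.14, adjusted p = 0.015, lower in 17 of 17 mice) and Bhlhe40 (-0.32 ± 0.09, adjusted p = 0.022) were lower among 17 circadian genes (median -0.09), and neither was called without the Adipoq libraries (adjusted p = 0.0501 and 0.082). With 2 surrogate variables 5 circadian genes were lower and 1 higher (median -0.18), and without the control libraries 2 were lower and 1 higher.

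Lipid and drug handling genes gave a few rises. Scd1, the desaturase that makes oleate, is abundant in surfactant-producing cells. Scd1 lay at 3822 to 8679 CPM (median 6298) under nintedanib and at 2474 to 5273 CPM (median 4308) under vehicle. In 13 of 17 nintedanib mice Scd1 was above every vehicle mouse (0.60 ± 0.16, adjusted p = 0.015, 0.63 without the Adipoq libraries, adjusted p = 0.0032), and vehicle was above control by 1.18 ± 0.19 (adjusted p = 1e-06). With Scd2 (0.21 ± 0.07, adjusted p = 0.044, lost in 16 of the 33 fits) it made up the 2 called of 14 fatty acid synthesis genes, whose median was 0.20. Without the Adipoq libraries 2 were called again, but these were Scd1 and Acaca, acetyl-CoA carboxylase (0.41, adjusted p = 0.027), while Scd2 had an adjusted p of 0.086. Of 19 cholesterol genes Sc5d was higher (0.25 ± 0.07, adjusted p = 0.027; median 0.17, none called without the Adipoq libraries). Abcb1b, one of the P-glycoprotein genes that export drugs, nintedanib among them, was the only call among 13 genes of AHR targets and drug handling (median 0.08), where 4 were higher without vehicle replicate 10. Nintedanib mice had 8.01 to 22.1 CPM (median 11.8) and vehicle mice 4.73 to 16.5 CPM (median 8.48) of Abcb1b. It was higher in 16 of 17 mice (0.51 ± 0.13, adjusted p = 0.011, adjusted p = 0.0459 without the Adipoq libraries). Of 20 glycolysis and hypoxia genes Pdk1 was lower (-0.18 ± 0.05, adjusted p = 0.033; median -0.04), with and without those libraries, with the call lost in 7 of the 33 fits. Of 14 NRF2 genes none was called (median 0.06), with 4 at an unadjusted p under 0.05 and 1 called higher by DESeq2, and 3 were higher without vehicle replicate 10. The call of Sc5d was lost without vehicle replicate 8 or nintedanib replicate 1 (adjusted p up to 0.053).

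Several genes of red cells and platelets were higher. Of 12 red cell genes 6 were higher, all 12 had positive values and the median was 0.55, and 1 was called without the Adipoq libraries (median 0.36). Hbb-bt, a beta-globin gene whose reads may be shared with its copy Hbb-bs, was that 1. Under nintedanib Hbb-bt measured 92.2 to 258 CPM (median 132), and under vehicle 45.6 to 179 CPM (median 73.3). All 17 nintedanib mice lay above the vehicle median (0.74 ± 0.15, adjusted p = 0.002, adjusted p = 0.035 without the Adipoq libraries). Slc4a1, the anion exchanger of red cells, changed by 1.04 ± 0.27 (adjusted p = 0.015). Of 10 platelet genes Ppbp (0.74 ± 0.22, adjusted p = 0.032, 17 of 17 mice) and Gp9 (0.72 ± 0.23, adjusted p = 0.0455) were higher (median 0.36), with the calls lost in 5 and 21 of the 33 fits, and none was called without the Adipoq libraries. Summed red cell levels were 530 to 2380 CPM under vehicle (median 975), 976 to 2860 under nintedanib (median 1440) and 1930 to 3360 in control mice.

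In all libraries edgeR called no gene of the alveolar epithelium lists. Of 15 type 2 genes none was called (median 0.09, 2 at an unadjusted p under 0.05, 1 called higher by DESeq2), with Sftpc at 0.12 ± 0.11 (95% interval -0.10 to 0.35, adjusted p = 0.52) and Sftpa1 at 0.44 ± 0.15 (adjusted p = 0.056). Of 14 type 1 genes none was called (median 0.08, 2 at an unadjusted p under 0.05, 0 by DESeq2), with Ager at 0.01 ± 0.09 (-0.17 to 0.19, adjusted p = 0.95). Of 16 genes of the transitional epithelium that marks stalled repair none was called (median -0.09, 3 at an unadjusted p under 0.05, 1 called lower by DESeq2), with Krt8 at -0.08 ± 0.09 (-0.25 to 0.09, adjusted p = 0.58) and Cldn4, a claudin, at -0.66 ± 0.22 (-1.11 to -0.21, adjusted p = 0.059). Vehicle minus control was 1.02 ± 0.10 for Krt8 and 2.54 ± 0.29 for Cldn4. Sftpa1 was called higher, and Cldn4 lower, in 8 of the 33 fits that left out 1 library each, and 1 type 1 gene was higher without nintedanib replicate 8 or 13. With 2 surrogate variables 1 gene of each of these 3 lists was higher, and within the largest number series 1 type 2 gene. None of 9 mesothelial genes was called by edgeR or DESeq2 in all libraries (median 0.33, 4 at an unadjusted p under 0.05, Wt1 at 0.56 ± 0.20, adjusted p = 0.076). In that list 2 were higher without nintedanib replicate 12, and 1 within the largest number series and with 2 surrogate variables.

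Calls in the airway and fat lists, and the median of the heart muscle list, changed when the libraries that stood apart were left out. Of 15 club cell genes 7 were higher (median 0.59), and of 11 fat cell genes 7 (median 2.82). The libraries were left out by their level of Adipoq, itself one of the 11, so the fat cell values without them are a description: 6 of the 11 had enough counts to be tested there, Adipoq, Cfd, Car3, Pck1 and Retn being too low, and the median of the 6 was 0.10. Of the 15 club cell genes, all tested there, none was called (median 0.15). Without the control libraries 5 of the 11 fat cell genes could be tested and 1 was higher (median 0.78). Single libraries moved both counts, to 3 fat cell genes without nintedanib replicate 7 and 4 club cell genes without nintedanib replicate 1. Summed club cell levels ran from 7290 to 27900 CPM under vehicle (median 12800) and from 12500 to 28600 under nintedanib (median 19700). The lowest nintedanib sum thus lay close to the vehicle median. Control mice had sums of 22800 to 40000 CPM (median 31300). Bpifa1, a secreted protein of the upper airway lining, was among the 7 called club cell genes. With vehicle, Bpifa1 stood at 0.267 to 20.2 CPM (median 1.99), and with nintedanib at 0 to 2362 CPM (median 1.47). The medians of the groups lay close together, and 5 of 17 nintedanib mice exceeded the highest vehicle mouse. Its fold change was 6.09 ± 1.27 (adjusted p = 0.0029) with all libraries and 0.28 without those holding Adipoq (adjusted p = 0.86). Krt15, a keratin of basal cells, and Plin1, the coat protein of fat droplets, had 3.54 ± 0.96 and 2.82 ± 0.86 (adjusted p = 0.02 and 0.036), and -1.76 and -1.15 without the Adipoq libraries. Krt15 and Sult1d1 lost their calls without nintedanib replicate 1 (adjusted p = 0.39 and 0.058), Pck1 and Cyp2e1 without nintedanib replicate 7 (0.12 and 0.10), and Plin1 in 6 of the 33 fits. Of 15 ciliated cell genes Rfx2 was higher (0.24 ± 0.08, adjusted p = 0.04; median 0.32, none called without the Adipoq libraries, and the call lost in 18 of the 33 fits). Of 9 heart muscle genes, which in mice the pulmonary veins also express, Myh7 was higher (0.63 ± 0.16, adjusted p = 0.015, still called without the Adipoq libraries at 0.70), while the list's median went from 0.98 to -0.39.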

How the data were processed

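Bulk polyA RNA-seq of the inferior lung lobe was available for 43 mice as 1 table of raw counts per gene, deposited by the authors. The submitters' processing notes name STAR 2.7.0f, R 3.6.0 and the build GRCm38. No source used here gives the counting tool or its use of strand. Groups came from the treatment labels, and 0 columns of the table were left unused. Genes were kept with filterByExpr of edgeR 4.0.16 (minimum count 10, minimum total 15; 99.96% of counts kept), scaled with TMM factors and fitted in R 4.3.3 with edgeR's robust quasi-likelihood test over all 43 libraries, without covariates. Adjusted p are Benjamini-Hochberg values over the 14836 tested genes, with a threshold of 0.05. Log2 fold changes are nintedanib minus vehicle. Their SE is the size of the log2 fold change divided by the square root of the test's F statistic. The 95% intervals use this SE and a t quantile, so both are approximate. CPM are scaled by the TMM factors. The scripts were tested on simulated data.

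Alternatives were RLE factors, library totals, no filter on low counts, DESeq2 1.42.0, no control libraries, the library number series as covariate or 1 series alone, no libraries with at least 1 CPM of Adipoq, 2 surrogate variables (sva 3.50.0), no robust option, and each nintedanib or vehicle library left out in turn. Named genes were, among called genes whose average log2 CPM was at least 2, the 12 largest rises, the 12 largest falls and the 10 smallest p. To these were added up to 4 called members of each list by p, or up to 2 tested members where none was called, and 26 preset genes. Other called list members are named to complete counts, and Acaca and Pdk4 because they were called only without the Adipoq libraries. Members and lists were chosen with earlier results of these data known. Promoter windows were matched by gene symbol to RefSeq.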

Additional observations from a re-analysis of the deposited data

How the results depend on the processing

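Of 1084 called genes, 476 were higher and 608 lower. Without the control libraries 640 were called (254 higher, 386 lower), and without the libraries holding Adipoq 525 (248 higher, 277 lower). With 2 surrogate variables 746 were higher and 562 lower, and DESeq2 called 1374. Over the other settings the total lay between 945 and 1182. Leaving out 1 library gave 696 (without nintedanib replicate 1) to 1559 called genes (without vehicle replicate 13), with 295 to 691 higher and 401 to 913 lower. Of 139 called genes examined, 85 kept their call in all 33 of these fits and 54 lost it in at least 1. These 139 were picked by the rule for named genes or after their values were seen. Their share therefore does not stand for all 1084 called genes.

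Of 176 genes examined, 165 had enough counts to be tested without the control libraries, and 39 of these lost their call. No member was then called in the aerocyte, platelet, mast cell, activated fibroblast, profibrotic macrophage, alveolar macrophage, cholesterol, glycolysis or ciliated lists. Only 3 of the 8 mast cell genes could be tested there, and 15 of 16 in both the activated fibroblast and the alveolar macrophage list. In the kinase list 1 was higher and 2 lower, in the alveolar fibroblast list 1 higher, and in the cell division list 1 lower. The lymphatic and inflammatory lists kept 5 and 3 lower, and 7 heat shock genes were higher. Signs reversed without the Adipoq libraries for Bpifb1 (-0.38), Krt15 (-1.76), Muc5b (-0.44) and Plin1 (-1.15). Within the largest number series they reversed for Flt1 (0.04), Postn (0.07) and Timp1 (0.01), and with the series as covariate for Postn (0). With 2 surrogate variables they reversed for Ager (-0.02), Col1a1 (0.14), Col1a2 (0.10), Col3a1 (0.08), Fn1 (0.26), Grem1 (0.14), Postn (0.12), Spry2 (-0.04) and Timp1 (0.41), and with library totals for Ager (-0.01) and Spry2 (0). The cause was not tested. No paired analysis was possible because the labels give no replicate numbers and the libraries were numbered in accession order. Genes too low to be tested are not described.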

Other observations

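Genes outside the rule for named genes were looked at after their values were seen. Egfr, the receptor of epidermal growth factor, which is not among the kinases listed above, was higher in all 17 nintedanib mice than the vehicle median. Egfr ran from 14.7 to 26.3 CPM (median 21.7) in the vehicle group and from 23.5 to 39.9 CPM (median 29.7) in the nintedanib group. The groups overlapped in part, and the log2 fold change was 0.52 ± 0.08 (adjusted p = 4.7e-05, 0.54 without the Adipoq libraries). Lpar1, a lysophosphatidic acid receptor of fibroblasts, changed by 0.40 ± 0.07 (adjusted p = 0.001), also above the vehicle median in 17 of 17 mice.

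Some transcription factors known from endothelium or blood, picked in the same way, were lower. Hlx, a homeobox factor, changed by -0.62 ± 0.09 (adjusted p = 3.6e-05, lower in 17 of 17 mice), Hhex, a homeobox factor, by -0.36 ± 0.07 (adjusted p = 0.00081, 15 of 17) and Lmo2, a partner of TAL1, by -0.52 ± 0.09 (adjusted p = 0.00036, 16 of 17). Other such factors of the endothelial and VEGF-responsive lists were not called. Among them were Sox7 (0.34, adjusted p = 0.053), Sox18 (0.12, 0.56), Sox17 (-0.08, 0.61), Erg (-0.17, 0.24) and Tal1 itself (-0.115, 0.34). Nr5a2, a nuclear receptor also called LRH-1, was a gene of low level with a large fall. Nr5a2 lay at 0.362 to 1.61 CPM (median 0.904) under nintedanib and at 1.1 to 4.41 CPM (median 3.23) under vehicle. All 17 nintedanib mice lay below the vehicle median (-1.65 ± 0.21, adjusted p = 2.6e-06).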
